A study of Mus musculus with 24 samples.

Results

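The comparison set livers without Rab30 and Cpt2 in hepatocytes (DKO) against livers without Rab30 alone (Rab30L-/-), so that it addressed the loss of Cpt2 where Rab30 was already deleted. Its 8 RNA-seq libraries, 4 DKO (DKO232, DKO233, DKO247 and DKO943) and 4 Rab30L-/- (Rab30cff741, Rab30cff978, Rab30cff979 and Rab30cff980), were chosen by their labels from the 24 libraries of the series. All mice had been fasted for 24 h. Cre under the albumin promoter, a hepatocyte promoter, acted on both floxed genes in DKO mice and on floxed Rab30 in Rab30L-/- mice, so both groups carried Cre and a deletion of Rab30 exon 4. The other cells of these livers kept both genes, and bulk RNA holds them all, so that fewer cells of a type and less RNA per cell cannot be told apart. A further pair of groups of 4, Cpt2L-/- (Cre with floxed Cpt2 alone) and ff;ff (both floxed genes and no Cre), gives the loss of Cpt2 with Rab30 intact and was used beside the main comparison. The other 8 libraries came from whole-body Rab30 knockout mice and their wild-type littermates, 4 each. They were used for levels in mice with Cpt2 intact and in a fit over all 24 libraries. The labels give the ff;ff mice as littermates of the DKO mice and give no litter for the Rab30L-/- mice, so litter and genotype cannot be told apart between DKO and Rab30L-/-. By the study's methods the mice were male young adults, and the labels give no age.

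Cpt2 encodes the enzyme of the inner mitochondrial membrane that reforms long-chain acyl-CoA from acylcarnitine, the last step of the carnitine shuttle before β-oxidation. In a fast the liver takes up fatty acids released by adipose tissue, and these or their derivatives activate Pparα, the nuclear receptor that drives genes of mitochondrial, peroxisomal and microsomal fatty acid oxidation, ketogenesis and lipid storage. Rab30 encodes a small GTPase of the Golgi. The liver is also the main source of plasma proteins, among them complement, clotting factors, apolipoproteins and acute phase proteins.

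Library totals lay between 13248673 and 24497738 counts, and every pair of libraries within a group differed by more than counting noise. Levels are given as CPM, the count of a gene over the library total after TMM scaling, in the order of the libraries above, and are not adjusted for gene length. Where a gene is said to have risen or fallen by a value without the word fold, that value is a log2 fold change. Hepatocyte markers were abundant in every library: albumin alone took 4.38% to 6.30% of all counts. Mitochondrially encoded transcripts took 6.60% to 7.67% of the counts in the DKO libraries and 4.31% to 4.86% in the Rab30L-/- libraries, without overlap. Among the Rab30L-/- libraries, Rab30cff978 stood apart by its acute phase transcripts, and its serum amyloid transcript Saa1 was at 3137 CPM where Rab30cff979 had 51.3 CPM. Rab30cff979 was the deepest library, and it also held the highest level of its group for Etfb, Apoc1 and Ndufs6, among others. Without it the log2 fold change of Etfb was -0.85 in place of -1.42, that of Apoc1 -1.18 in place of -1.63, and that of Ndufs6 -0.59 in place of -1.002. The log2 fold change of Elovl6 was -1.08, and -0.64 without it. The call of Ndufs6 was lost without Rab30cff979, DKO232, DKO233 or DKO247, and that of Elovl6 without Rab30cff979, DKO232, DKO247 or DKO943.

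The targeted genes were read first, from counts over the whole gene. Cpt2 (ENSMUSG00000028607) lies on the minus strand of chr4:107903981-107923610 in GRCm38. Its level was 98.8, 96.5, 106 and 119 CPM in the DKO libraries and 272, 215, 221 and 171 CPM in the Rab30L-/- libraries. Each DKO library lay below each Rab30L-/- library, with a mean of 105 ± 9.96 CPM in DKO and 219.9 ± 41.5 CPM in Rab30L-/- livers (SD, n = 4 each; log2 fold change -1.07, standard error 0.15, adjusted p = 0.000449 by edgeR's quasi-likelihood test). Rab30 (ENSMUSG00000030643) lies on the plus strand of chr7:92741603-92844535 in GRCm38. Its level was 131, 101.3, 233 and 181 CPM in the DKO libraries and 19.5, 10.4, 26 and 12.4 CPM in the Rab30L-/- libraries. Although both labels name a deletion of Rab30, its count was 9.39-fold higher in DKO (log2 fold change 3.23, standard error 0.36, adjusted p = 0.000325), with no overlap. Reads from the exons that remain are counted on the gene, so the whole-gene count does not check the deletion of exon 4. The same holds for Cpt2, whose deleted exon is not given in the sources used here: in Cpt2L-/- against ff;ff livers its whole-gene count had a log2 fold change of -0.07 (adjusted p = 0.788), so that count does not check the Cpt2L-/- label. Within 5 Mb of Cpt2, 11 of 54 other genes tested were higher and 7 lower in DKO, together 33.3%, close to the share over all genes given next.

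DKO and Rab30L-/- livers differed over much of the transcriptome. Of 13292 genes tested, 4081 (30.7%) passed the thresholds, set at 0.05 for the adjusted p and at 1.2-fold for the size of the change. In DKO 1984 genes (14.9% of those tested) were higher and 2097 (15.8%) were lower. The 2 groups did not overlap in 4189 genes, 31.5% of those tested. The median log2 fold change of all genes tested was -0.01. Larger changes leaned downwards: with at least a 2-fold change 552 genes were higher and 999 lower. In the plot of all genes tested, the abundant genes below the line included Apoe, C3 and Hpx, which encode secreted proteins, and those above it Cyp4a14 and Ehhadh of fatty acid oxidation.

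**Figure D1:**
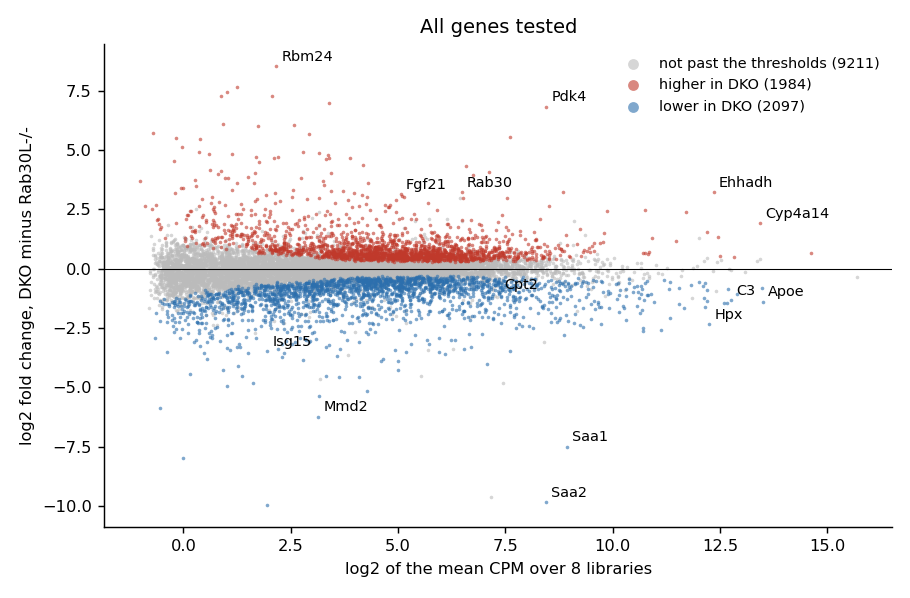
Log2 fold change (DKO minus Rab30L-/-) of each of the 13292 genes tested against the log2 of its mean CPM over the 8 libraries. Red points are the 1984 genes called higher in DKO, blue points the 2097 called lower and grey points the rest.

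The 12 largest rises among protein-coding genes, as chosen by a rule on size, overlap and abundance, were those of Rbm24, Fabp3, Creb5, Tubb2b, Ctse, Pdk4, Aqp3, Elovl7, Nrg1, Corin, Adra2a and Psat1. Pdk4, the kinase that shuts down pyruvate dehydrogenase in fasting, was at 816, 752, 840.1 and 361 CPM in the DKO libraries and 7.3, 5.29, 5.41 and 6.36 CPM in the Rab30L-/- libraries. The lowest DKO library, DKO943, was still far above every Rab30L-/- library, and the mean was 114-fold higher (log2 fold change 6.83, standard error 0.31, adjusted p = 7.77e-07). Fabp3, the fatty acid binding protein of heart muscle, was at 6.22, 4.86, 1.18 and 6.77 CPM in DKO and had 1 count summed over the 4 Rab30L-/- libraries, a ratio of 308 with a 95% exact counting interval from 54.9 to 12200. Rbm24, an RNA binding protein of muscle, also had 1 count in Rab30L-/- against 594 in DKO, a ratio of 559 (interval 100 to 22100). Creb5, a transcription factor of the CREB family, had 1 count against 253, a ratio of 238 (interval 42.4 to 9450). The tubulin Tubb2b had 3 counts against 579 (ratio 182, interval 61.9 to 884), and the glycerol channel Aqp3 had 3 against 245 (ratio 76.9, interval 26.0 to 376). These intervals cover counting error alone. The 3 counts of Tubb2b were all in Rab30cff979. Without 1 library that held such counts, the log2 fold change was 10.20 for Rbm24 (in place of 8.54) and 9.31 for Fabp3 (7.64) without Rab30cff980, and 8.78 for Creb5 (7.29), 9.96 for Tubb2b (7.26) and 6.77 for Aqp3 (6.10) without Rab30cff979; these fitted values are no bounds. Elovl7, a fatty acid elongase, was at 10.7, 6.22, 17.9 and 12.1 CPM in the DKO libraries and 0, 0.165, 0.287 and 0.153 CPM in the Rab30L-/- libraries. Nrg1, a ligand of ErbB receptors, was at 3.89, 3.63, 8.12 and 10.8 CPM in the DKO libraries and 0.154, 0.0827, 0.123 and 0 CPM in the Rab30L-/- libraries. Neither gene reached 0.3 CPM in any Rab30L-/- library, and their log2 fold changes were 6.04 and 6.01 (adjusted p = 2.97e-05 and 5.9e-05). Psat1, an enzyme of serine synthesis, had a log2 fold change of 4.88 (adjusted p = 0.000928), and the adrenergic receptor Adra2a one of 4.90 (adjusted p = 0.00408). Leaving out 1 library moved the log2 fold change of Elovl7 to 6.70 and that of Psat1 to 5.64 (without Rab30cff979), and that of Adra2a to 5.84 (without Rab30cff741).

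Corin and Ctse also varied widely in mice where Cpt2 is intact. Corin, a natriuretic peptide convertase, was at 16.1, 16, 13.5 and 14.3 CPM in the DKO libraries and 0.154, 0.248, 0.369 and 0.306 CPM in the Rab30L-/- libraries (log2 fold change 5.69, standard error 0.25, adjusted p = 6.69e-07). In the 8 libraries of whole-body Rab30 knockout mice and their controls, the largest step between neighbouring ordered levels was 6.29 log2 units. Ctse, an aspartic protease, was at 8.97, 6.16, 59.1 and 8.86 CPM in the DKO libraries and 0.23, 0.165, 0.205 and 0 CPM in the Rab30L-/- libraries (log2 fold change 6.96, standard error 1.22, adjusted p = 0.00535). Its rise was 5.61 without DKO247, the highest library, and its step in the whole-body cohort was 5.35 log2 units.

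The 12 largest falls were those of Saa2, Saa1, Mmd2, Cux2, Fam81a, Mme, Aph1c, Tff3, Rpl34, Cyp2c54, Slc3a1 and Enho. Saa1, an acute phase apolipoprotein, was at 5.79, 5.38, 4.06 and 6.03 CPM in the DKO libraries and 594, 3137, 51.3 and 90.6 CPM in the Rab30L-/- libraries. Saa2, its neighbour and near copy, was at 0.636, 1.1, 0.458 and 0.788 CPM in the DKO libraries and 265, 2487, 11.6 and 18.4 CPM in the Rab30L-/- libraries. The DKO libraries were uniformly low and the Rab30L-/- libraries spread widely, with Rab30cff978 at the top and Rab30cff741 next. The log2 fold change of Saa1 was -7.50 (adjusted p = 0.0161) and -5.52 without Rab30cff978, and its call was lost without DKO232 or DKO247 (adjusted p up to 0.0517). For Saa2 the values were -9.84 (adjusted p = 0.0243) and -7.01, and its call was lost without any 1 of the DKO libraries (adjusted p up to 0.0703). Reads of these paralogs may be shared, so that each value is uncertain.

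Cyp2c54, a cytochrome P450 of drug and arachidonic acid metabolism, was at 15.8, 16.1, 10.7 and 18.8 CPM in the DKO libraries and 295, 271, 149 and 297 CPM in the Rab30L-/- libraries. It fell 16.4-fold in DKO (log2 fold change -4.04, standard error 0.26, adjusted p = 1.1e-05). Enho, which encodes the secreted peptide adropin, was at 2.33, 1.55, 3.93 and 4.31 CPM in the DKO libraries and 55.4, 48.2, 31.1 and 47 CPM in the Rab30L-/- libraries (log2 fold change -3.88, standard error 0.31, adjusted p = 3.6e-05). Slc3a1, a subunit of a cystine and dibasic amino acid transporter, was at 2.69, 2.46, 3.86 and 6.72 CPM in the DKO libraries and 33, 109, 33.4 and 62.4 CPM in the Rab30L-/- libraries (log2 fold change -3.89, standard error 0.53, adjusted p = 0.00147). In all 3 genes each DKO library lay well below each Rab30L-/- library. Cux2, a transcription factor normally higher in female liver, fell by 5.36 on the log2 scale (adjusted p = 0.00106) and fell by 6.25 without DKO233. Mmd2 fell by 6.24 (adjusted p = 0.00035), Fam81a fell by 4.94 (adjusted p = 0.000144) and the membrane peptidase Mme fell by 4.83 (adjusted p = 0.000127). Tff3, a trefoil peptide, was at 2.26, 0.713, 0.72 and 1.85 CPM in the DKO libraries and 6.3, 6.78, 82.4 and 35.1 CPM in the Rab30L-/- libraries (log2 fold change -4.55, standard error 1.08, adjusted p = 0.0201). Its call was lost without DKO232, DKO233 or DKO247 (adjusted p up to 0.0617), and without Rab30cff979, the highest library, its log2 fold change was -3.52. Rpl34 and Aph1c had log2 fold changes of -4.27 and -4.58 (adjusted p = 7.77e-07 and 2.97e-05), and in the whole-body cohort their levels had steps of 3.76 and 2.02 log2 units. Rpl34 has processed copies elsewhere in the genome, which makes its count uncertain.

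**Figure D2:**
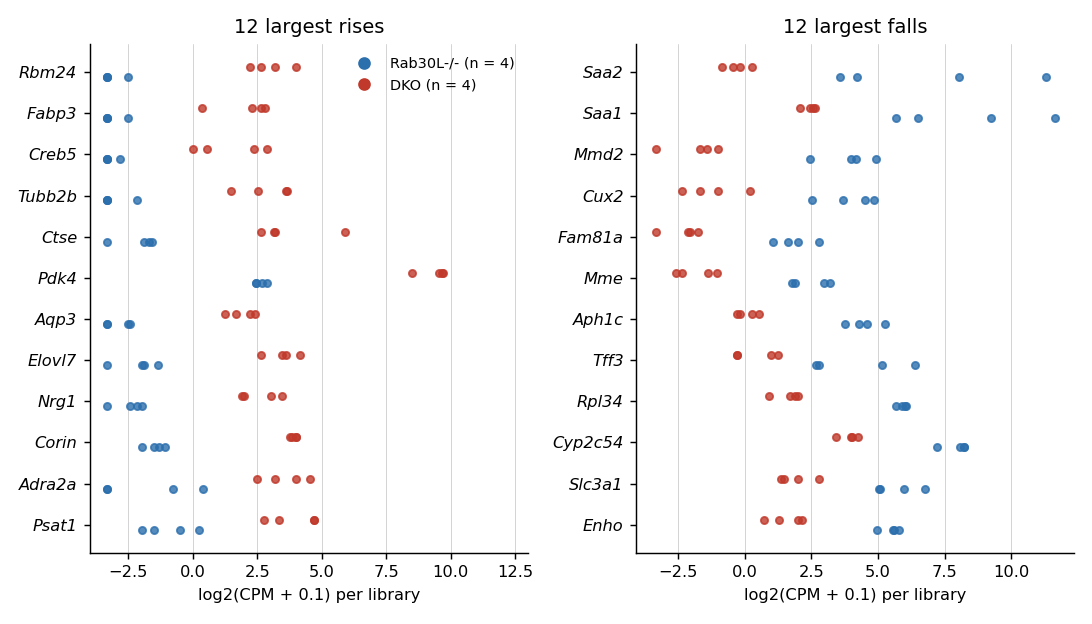
Level of the 12 largest rises and 12 largest falls in each library, as log2(CPM + 0.1), with blue points for the 4 Rab30L-/- and red points for the 4 DKO libraries. The groups do not overlap for any gene shown, as the rule required; the Rab30L-/- points of Saa1 and Saa2 are widely spread.

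Among the 10 called genes with the highest mean CPM that changed at least 2-fold, 3 rose. Cyp4a14, which hydroxylates the end of fatty acid chains, was at 17580, 19560, 17260 and 15540 CPM in the DKO libraries and 6634, 3287, 5910 and 2715 CPM in the Rab30L-/- libraries (log2 fold change 1.91, standard error 0.28, adjusted p = 0.000538). Cyp4a10, its close relative, was at 8126, 9207, 8538 and 6245 CPM in the DKO libraries and 4900, 2323, 3112 and 2391 CPM in the Rab30L-/- libraries (log2 fold change 1.34, standard error 0.25, adjusted p = 0.00235). Ehhadh, the peroxisomal bifunctional enzyme, was at 11970, 10370, 5861 and 9566 CPM in the DKO libraries and 1690, 509, 1337 and 499.5 CPM in the Rab30L-/- libraries (log2 fold change 3.23, standard error 0.45, adjusted p = 0.000824). The lowest DKO library was above the highest Rab30L-/- library for each. The 7 that fell were all secreted proteins: Apoe, Serpina3k, C3, Ahsg, Mug1, Hpx and Serpina1b. Apoe, the ligand for clearance of remnant lipoproteins, was at 6574, 6117, 6082 and 6642 CPM in the DKO libraries and 17640, 15220, 20270 and 13840 CPM in the Rab30L-/- libraries (log2 fold change -1.40, standard error 0.17, adjusted p = 0.000194). Serpina1b, an α1-antitrypsin, was at 2611, 3005, 2310 and 2520 CPM in the DKO libraries and 6718, 6865, 6855 and 6606 CPM in the Rab30L-/- libraries and varied little within either group (log2 fold change -1.37, standard error 0.15, adjusted p = 9.96e-05). Hpx, the heme carrier hemopexin, was at 1653, 1623, 1444 and 1680 CPM in the DKO libraries and 7027, 14930, 4957 and 5355 CPM in the Rab30L-/- libraries (log2 fold change -2.33, standard error 0.33, adjusted p = 0.000618). The protease inhibitors Serpina3k and Mug1 had log2 fold changes of -1.08 and -1.43 (adjusted p = 0.00929 and 0.00358), and Mug1 was the 1 gene of the 10 whose groups overlapped, through Rab30cff979.

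Genes of fatty acid oxidation were higher in DKO as a group. Among Pparα targets 30 of 36 tested members were called higher and 0 lower, where 14.9% and 15.8% of all genes tested were, and the median log2 fold change was 1.96. The list includes Rab30 itself and was written with earlier results of these data known. With 1 library left out, 26 to 29 members were called higher. Where 0 members of a list are given for a direction by edgeR, an unadjusted p under 0.05, the DESeq2 Wald test and limma-voom each gave at most 1, except for lower fatty acid binding proteins, with 2, 1 and 3. Plin2, which coats lipid droplets, and Vnn1 were among the members called higher, and the list's summed level was 61200 to 76990 CPM in the DKO and 16750 to 31240 CPM in the Rab30L-/- libraries. Its largest rises after Fabp3 and Pdk4 were those of the uncoupling protein Ucp3, with 168 counts in DKO and 3 in Rab30L-/- (ratio 52.7, 95% exact counting interval 17.7 to 258), and of Acot2, a mitochondrial acyl-CoA thioesterase. The 3 counts of Ucp3 were all in Rab30cff741; its fitted log2 fold change of 5.48 was 8.397 without that library and 4.87 without Rab30cff979. Acot2 was at 184, 191, 186 and 169 CPM in the DKO libraries and 10.8, 3.97, 18.6 and 2.53 CPM in the Rab30L-/- libraries; the DKO libraries were nearly level and those of Rab30L-/- spread, and its log2 fold change of 4.31 (adjusted p = 0.00193) was 4.98 without Rab30cff979. Of the acyl-CoA thioesterases 8 of 12 tested members were called higher and 0 lower (median 1.09), and the cytosolic Acot1 rose by 3.21 (adjusted p = 0.0066; 3.91 without Rab30cff741). Of the Cyp4a genes 5 of 6 tested members were called higher and 0 lower (median 1.58); Cyp4a12b rose by 1.90 (adjusted p = 0.000323). The Cyp4a genes are close paralogs, and their counts may be shared.

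In mitochondrial fatty acid oxidation and uptake, 19 of 29 tested members were called higher and 3 lower, with a median of 0.73. Cd36, a membrane transporter of fatty acids, was at 199, 199, 136 and 115 CPM in the DKO libraries and 17.7, 16.9, 31.4 and 16.8 CPM in the Rab30L-/- libraries (log2 fold change 2.96, standard error 0.27, adjusted p = 6.56e-05). Slc27a1, a fatty acid transport protein, was at 136, 129.6, 98.5 and 80.7 CPM in the DKO libraries and 29.6, 26.7, 36.1 and 26.6 CPM in the Rab30L-/- libraries (log2 fold change 1.90, standard error 0.18, adjusted p = 4.88e-05), and Crat, carnitine acetyltransferase, rose by 1.75 (adjusted p = 0.000814). For these genes no DKO library overlapped a Rab30L-/- library. The 3 lower members were Cpt2 itself, Etfb and Echs1, and 1 or 2 of them were called when any library was left out. Etfb, a subunit of the electron transfer flavoprotein, was at 13.4, 16.9, 14.1 and 15.8 CPM in the DKO libraries and 29.7, 25.8, 78.6 and 25.6 CPM in the Rab30L-/- libraries, with Rab30cff979 far above the others, and its call was lost without DKO232, DKO247 or DKO943 (adjusted p up to 0.0669).

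Among peroxisomal genes 11 of 39 tested members were called higher and 8 lower. Acaa1b, a peroxisomal thiolase, rose by 2.39 (adjusted p = 0.00113). Pex11a, which divides peroxisomes, was at 694, 616, 556 and 659 CPM in the DKO libraries and 175, 94, 84 and 56.9 CPM in the Rab30L-/- libraries (log2 fold change 2.62, standard error 0.30, adjusted p = 0.000221). The lower members included Acox2, Amacr and Phyh, which handle branched chains and bile acid intermediates, chosen for mention after their values were seen, with log2 fold changes of -0.88, -0.66 and -0.47. Of the fatty acid binding proteins 4 of 10 tested members were called higher and 0 lower, among them Fabp2 (0.97, adjusted p = 0.00175) and Fabp4 (2.15, adjusted p = 0.0068; 2.84 without Rab30cff979). Fabp2 and Fabp4 were also the 2 tested members of a list of markers of other tissues near the liver. Their sum was 201 to 269 CPM in the DKO and 92.4 to 157 CPM in the Rab30L-/- libraries, and the part of such tissue was not tested. Of the ketone body genes 2 of 9 tested members were called higher and 0 lower, and the higher count was 3 by the DESeq2 Wald test, 4 by limma-voom and 4 in the fit over 24 libraries. The 2 were Aacs, which activates acetoacetate for lipid synthesis (1.74, adjusted p = 8.34e-05), and the monocarboxylate transporter Slc16a7 (0.73, adjusted p = 0.0079). Of the pyruvate dehydrogenase kinases and phosphatases, Pdk4 was the 1 member of 5 called; 2 were called higher without Rab30cff978, and 1 was called lower without Rab30cff741, by the DESeq2 Wald test and by limma-voom.

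**Figure D3:**
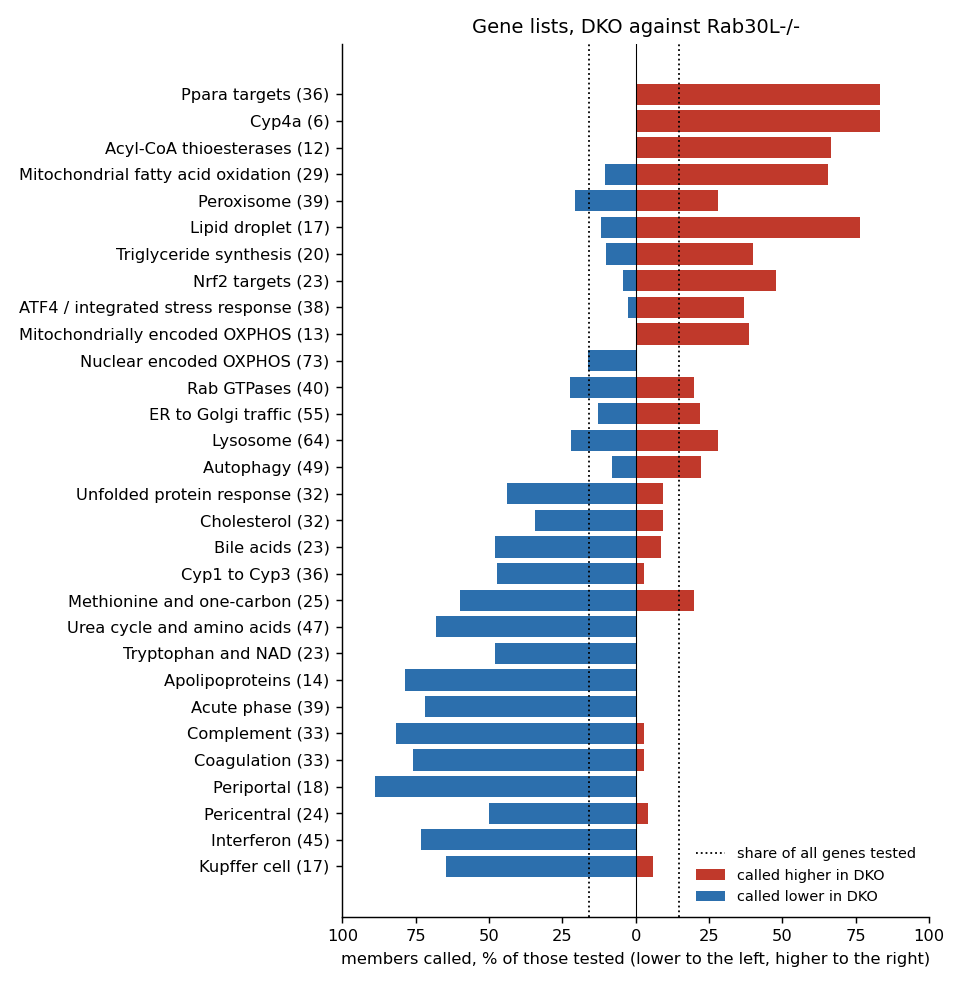
Share of the tested members of 30 gene lists called higher (red, to the right) or lower (blue, to the left) in DKO, with the number tested in parentheses. Dotted lines mark the shares among all genes tested, 14.9% higher and 15.8% lower; the Pparα target and Cyp4a lists reach farthest to the right and the periportal and complement lists farthest to the left.

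Lipid droplet genes were also higher in DKO. Of 17 tested, 13 were called higher and 2 lower (median log2 fold change 1.07). Plin2 was at 2549, 2440, 3686 and 3050 CPM in the DKO libraries and 698, 468, 626 and 313 CPM in the Rab30L-/- libraries (log2 fold change 2.48, standard error 0.26, adjusted p = 7.64e-05). Plin4, another droplet coat protein, was at 256, 216, 231 and 109.6 CPM in the DKO libraries and 10.8, 12.9, 17.6 and 11.4 CPM in the Rab30L-/- libraries (log2 fold change 3.94, standard error 0.28, adjusted p = 2.15e-05), and Cidec, which fuses droplets, was at 259, 251, 452 and 345 CPM in the DKO libraries and 68.9, 16.7, 63 and 18.4 CPM in the Rab30L-/- libraries (log2 fold change 2.97, standard error 0.54, adjusted p = 0.00538). Each of the 3 had its groups fully apart. Hilpda, an inhibitor of triglyceride lipase, rose by 2.19 (adjusted p = 0.00171). The lower members were Lipe, hormone-sensitive lipase (-1.23), and Cideb (-0.38), named after their values were seen; the lower count was 0 without Rab30cff978 or DKO232 and 1 without any other single library except Rab30cff980. In triglyceride synthesis 8 of 20 tested members were called higher and 2 lower: the acyltransferases Mogat1, Mogat2 and Gpat3 rose by 3.18, 2.62 and 1.70 (adjusted p = 0.00377, 0.00118 and 0.00158), and Lpin2, a phosphatidate phosphatase, by 1.48 (adjusted p = 0.000204).

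In lipogenesis 2 of 15 tested members were called higher and 6 lower. Thrsp, a thyroid hormone responsive protein of lipogenic tissue, was at 2.61, 3.43, 5.04 and 3.01 CPM in the DKO libraries and 20.7, 31.3, 13.7 and 22.7 CPM in the Rab30L-/- libraries (log2 fold change -2.64, standard error 0.28, adjusted p = 9.52e-05). In the other direction Me1, malic enzyme, was at 257, 200, 252 and 312 CPM in the DKO libraries and 96.4, 59.6, 48 and 57.1 CPM in the Rab30L-/- libraries (log2 fold change 1.97, standard error 0.22, adjusted p = 0.000129), and Acacb, the mitochondrial acetyl-CoA carboxylase, rose by 1.32 (adjusted p = 0.000244). Of the elongases and desaturases 5 of 17 tested members were called higher and 3 lower; beside Elovl7, Scd2 fell by 1.06 (adjusted p = 0.00679). Between 3 and 6 of this list were called higher when 1 library was left out, 3 of them without Rab30cff980 or DKO943. Apolipoproteins were lower: 0 of 14 tested members were called higher and 11 lower (median -0.76). Apoa4, an apolipoprotein of triglyceride-rich particles, was at 4808, 4303, 7788 and 6413 CPM in the DKO libraries and 2200, 1019, 4742 and 1548 CPM in the Rab30L-/- libraries and was not called (log2 fold change 1.29, adjusted p = 0.0505), while 1 member was called higher by the DESeq2 Wald test and by limma-voom. Apom, which carries sphingosine phosphate on HDL, was at 66, 65.2, 55.8 and 82.4 CPM in the DKO libraries and 278, 229, 271 and 238 CPM in the Rab30L-/- libraries (log2 fold change -1.92, standard error 0.14, adjusted p = 1.56e-05). Apoc4 was at 160.1, 152, 156 and 186 CPM in the DKO libraries and 485, 405, 625 and 448 CPM in the Rab30L-/- libraries (log2 fold change -1.59, standard error 0.16, adjusted p = 6.96e-05). Apoc1 fell by 1.63 (adjusted p = 0.00318), with Rab30cff979 at 2240 CPM above the other 3 libraries of its group (-1.18 without it). Among genes of cholesterol synthesis and transport 3 of 32 tested members were called higher and 11 lower, but the lower count was 7 without Rab30cff978 or DKO232, and the higher count 1 without Rab30cff979, Rab30cff980, DKO232 or DKO247. In the fit over 24 libraries the counts of this list were 0 higher and 6 lower. The HDL receptor Scarb1 fell by 1.6 (adjusted p = 0.000204) and the remnant receptor Lrp1 fell by 1.15 (adjusted p = 0.00618). Among bile acid genes 2 of 23 tested members were called higher and 11 lower, and the lower count was 7 without DKO232. Akr1d1, a reductase of bile acid synthesis, was at 34, 67.3, 66.7 and 47 CPM in the DKO libraries and 146, 292, 214 and 227 CPM in the Rab30L-/- libraries (log2 fold change -2.03, standard error 0.26, adjusted p = 0.000358). Cyp7a1, the rate-limiting enzyme, was at 44.7, 16.5, 73 and 89.4 CPM in the DKO libraries and 139, 197, 266 and 363 CPM in the Rab30L-/- libraries (log2 fold change -2.11, adjusted p = 0.0211), a call lost without DKO232 (adjusted p = 0.0656). Nr0b2, a repressor of bile acid synthesis, was at 2.26, 4.6, 0 and 1.99 CPM in the DKO libraries and 37.5, 23.2, 17 and 13.9 CPM in the Rab30L-/- libraries (log2 fold change -3.37, adjusted p = 0.0156); without DKO232 the adjusted p was 0.0509, and without DKO233 the log2 fold change was -3.97.

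Hormones and stress genes were divided. Of the hepatokines 3 of 22 tested members were called higher and 10 lower. Fgf21, the fasting hormone, was at 47, 32.7, 73.4 and 86.5 CPM in the DKO libraries and 6.83, 5.29, 11.7 and 2.83 CPM in the Rab30L-/- libraries (log2 fold change 3.13, standard error 0.47, adjusted p = 0.00208). Gdf15, a hormone of cell stress that lowers appetite, was at 40.3, 49.5, 67.9 and 36.7 CPM in the DKO libraries and 10.4, 6.04, 7.38 and 6.58 CPM in the Rab30L-/- libraries (log2 fold change 2.68, standard error 0.23, adjusted p = 3.57e-05). Inhbe was the third to rise. Angptl8, a regulator of lipoprotein lipase, was at 2.9, 2.79, 3.34 and 2.74 CPM in the DKO libraries and 8.37, 9.26, 14.8 and 12.9 CPM in the Rab30L-/- libraries (log2 fold change -1.95, standard error 0.22, adjusted p = 0.000128), and it fell beside Enho. For all 4 hormones given by library the groups did not overlap.

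In the ATF4 or integrated stress response list, which holds targets of the transcription factor that responds to amino acid shortage and mitochondrial or ER stress, 14 of 38 tested members were called higher and 1 lower (median 0.50), and 11 to 17 were called higher with 1 library left out. Atf3, an early stress transcription factor, was at 21.2, 22.4, 56.7 and 38.1 CPM in the DKO libraries and 0.461, 1.99, 3.12 and 0.689 CPM in the Rab30L-/- libraries (log2 fold change 4.36, standard error 0.59, adjusted p = 0.00129). Nupr1, a stress-induced chromatin protein, was at 12.7, 11.2, 38.8 and 20.2 CPM in the DKO libraries and 0.384, 0.413, 3.08 and 0.459 CPM in the Rab30L-/- libraries (log2 fold change 4.05, standard error 0.76, adjusted p = 0.00631). Mthfd2, of mitochondrial folate metabolism, rose by 3.33 (adjusted p = 0.00186). DKO247 was the highest library for Nupr1 and Atf3, and without Rab30cff979 their log2 fold changes were 5.60 and 5.06. Cth, cystathionine γ-lyase, was the 1 member called lower. The other 23 were not called, among them Atf4 itself (0.45), Asns (-0.87), Trib3 (0.75) and Chac1 (0.98), named after their values were seen. Fgf21 is also on the Pparα target and hepatokine lists.

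Promoters of these stress genes were searched because several of them moved together. In the RefSeq promoter table of GRCm38.p6, from 250 bases before to 50 after a start, 13 of the 14 higher members had an entry, with 16 windows. The letters TGATGNAA, a composite site recognised by ATF4 with a C/EBP partner, were found on 1 strand or the other in 5 of these windows (31.2%), where 1304 of all 32851 windows (3.97%) held them. The 5 stretches are shown 5′ to 3′ in the direction of the gene with the match in capitals, so that TTNCATCA is the same motif on the opposite strand. Of the 30 higher Pparα targets 24 were in the table with 28 windows, and a direct repeat of AGGNCA with 1 base between, the element bound by Pparα with its partner RXR, was found in 0 of them and in 0.381% of all windows. A match is a description of letters, not evidence of binding, and no match says only that these letters are not in this window. Both lists were made of targets of these factors, and only the higher members were searched. The shares therefore cannot relate a motif to the changes in DKO. Up to 50 bases on each side of the match are shown, and the stretches lie at chr1:191183386-191183493 on the minus strand for Atf3, chr7:45615572-45615679 on the minus strand for Fgf21, chr6:55037921-55038000 on the plus strand for Gars, chr7:126625523-126625630 on the minus strand for Nupr1 and chr19:27216770-27216877 on the plus strand for Vldlr.
Atf3: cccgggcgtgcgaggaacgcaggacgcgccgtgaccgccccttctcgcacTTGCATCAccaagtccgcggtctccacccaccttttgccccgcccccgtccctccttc
Fgf21: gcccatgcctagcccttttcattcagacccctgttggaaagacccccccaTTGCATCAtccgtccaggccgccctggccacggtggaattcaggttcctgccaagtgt
Gars: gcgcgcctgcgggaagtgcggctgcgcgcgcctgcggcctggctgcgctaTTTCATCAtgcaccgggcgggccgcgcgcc
Nupr1: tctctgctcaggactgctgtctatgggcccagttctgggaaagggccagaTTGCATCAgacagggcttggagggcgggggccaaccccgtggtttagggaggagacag
Vldlr: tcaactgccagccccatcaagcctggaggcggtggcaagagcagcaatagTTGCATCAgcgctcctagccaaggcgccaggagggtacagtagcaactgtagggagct

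Of these 5 genes, Vldlr and Gars were named for their promoters. Vldlr, a lipoprotein receptor, rose by 2.75 on the log2 scale (adjusted p = 0.0235), and Gars, glycyl-tRNA synthetase, by 1.07 (adjusted p = 0.00307). In the Nrf2 list of antioxidant genes 11 of 23 tested members were called higher and 1 lower (median 0.44). Srxn1, which repairs oxidised peroxiredoxins, was at 243, 161, 375 and 349.7 CPM in the DKO libraries and 64.3, 59.4, 62.9 and 46.2 CPM in the Rab30L-/- libraries (log2 fold change 2.28, standard error 0.25, adjusted p = 0.000145). Cbr3 and Pgd rose by 2.61 and 1.17 (adjusted p = 0.00298 and 0.00229), and Osgin1 was the 1 that fell (-1.46, adjusted p = 0.00879). Genes of the unfolded protein response of the ER went the other way: 3 of 32 tested members were called higher and 14 lower (median -0.55), with 8 lower without DKO232 or DKO233. The ER chaperone Calr was at 179, 175, 184 and 312 CPM in the DKO libraries and 608, 548, 506 and 583 CPM in the Rab30L-/- libraries (log2 fold change -1.40, standard error 0.20, adjusted p = 0.00042), and the disulfide isomerase Pdia6 fell by 1.39 (adjusted p = 0.0018). Eif2ak3, the ER kinase PERK, was one of the 3 that rose (1.40, adjusted p = 0.00137). Among p53 targets 5 of 21 tested members were called higher and 0 lower, a count that was 2 without Rab30cff979, DKO233 or DKO943 and 3 without Rab30cff978; Perp rose by 0.70 (adjusted p = 0.00455). Of the cell cycle genes 5 of 20 tested members were called higher and 2 lower; the replication factor Mcm4 rose by 1.22 (adjusted p = 0.0073) and Birc5, survivin, fell by 1.75 (adjusted p = 0.00679). Pttg1, securin, rose by 3.70 (adjusted p = 2.31e-05), and its levels in the whole-body cohort had a step of 2.86 log2 units.

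Amino acid metabolism was lower in DKO. In the list of the urea cycle and amino acid breakdown 0 of 47 tested members were called higher and 32 lower (median -0.84), and 27 to 31 were called lower with 1 library left out. Sds, serine dehydratase, was at 86.5, 122, 96.9 and 34.4 CPM in the DKO libraries and 394, 440.3, 642 and 448 CPM in the Rab30L-/- libraries (log2 fold change -2.50, standard error 0.35, adjusted p = 0.000826). Hal, which opens histidine breakdown, was at 185, 270.1, 125 and 159.9 CPM in the DKO libraries and 778, 1125, 745 and 980.4 CPM in the Rab30L-/- libraries (log2 fold change -2.29, standard error 0.24, adjusted p = 8.5e-05). Gls2, liver glutaminase, fell by 2.07 (adjusted p = 0.000449) and Hao1, which makes glyoxylate, fell by 1.84 (adjusted p = 0.00435). Every DKO library lay below every Rab30L-/- library for these genes. In methionine and one-carbon metabolism 5 of 25 tested members were called higher and 15 lower (median -0.73). Cth was at 140.3, 186, 288 and 162 CPM in the DKO libraries and 1070, 1158, 1185 and 908 CPM in the Rab30L-/- libraries (log2 fold change -2.48, standard error 0.22, adjusted p = 3.6e-05), and Gamt, of creatine synthesis, was at 7.63, 7.52, 7.98 and 8.67 CPM in the DKO libraries and 27.3, 85.1, 101.2 and 70.1 CPM in the Rab30L-/- libraries (log2 fold change -3.16, standard error 0.36, adjusted p = 0.000363). The higher members included Psat1, Mthfd2, Mat2a and Mtr. In tryptophan and NAD metabolism 0 of 23 tested members were called higher and 11 lower: Haao, of quinolinate synthesis, was at 62, 70.8, 43.6 and 53.5 CPM in the DKO libraries and 207, 272, 239 and 243 CPM in the Rab30L-/- libraries (log2 fold change -2.06, standard error 0.16, adjusted p = 1.78e-05), and Acmsd, which draws tryptophan carbon away from NAD, fell by 3.42 (adjusted p = 0.000498). The lower count was 11 with each single library left out. Nnmt, which methylates nicotinamide, fell by 2.05 (adjusted p = 0.00251) and had a step of 2.69 log2 units in the whole-body cohort.

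In gluconeogenesis and glycolysis 2 of 24 tested members were called higher and 8 lower. Fbp1, fructose bisphosphatase, was at 524, 626, 414 and 308 CPM in the DKO libraries and 1054, 1512, 2097 and 1234 CPM in the Rab30L-/- libraries (log2 fold change -1.66, standard error 0.26, adjusted p = 0.00096). Gckr, the regulator of glucokinase, fell by 1.49 (adjusted p = 0.000241) and Khk, ketohexokinase, fell by 1.25 (adjusted p = 7.11e-05). Gpd2, the mitochondrial glycerol phosphate dehydrogenase, rose by 1.77 (adjusted p = 7.14e-05), and Pck1 was among the lower members. Of the glycogen genes 7 of 18 tested members were called higher and 4 lower, and the higher count was 4 in the fit over 24 libraries. The glycogen targeting subunits were called in both directions. Ppp1r3c was at 3.82, 4.67, 2.49 and 3.29 CPM in the DKO libraries and 43.2, 35.3, 24.4 and 19.1 CPM in the Rab30L-/- libraries (log2 fold change -3.10, standard error 0.28, adjusted p = 6.15e-05), and Ppp1r3b fell by 1.88 (adjusted p = 0.000142). Ppp1r3g rose by 3.60 (adjusted p = 0.0201; 4.47 without Rab30cff979), a call lost without Rab30cff741, Rab30cff978 or Rab30cff980 (adjusted p up to 0.0557), and Ppp1r3e was not called (0.61, adjusted p = 0.31). Of 8 carbonic anhydrases tested, 7 were lower, among them the mitochondrial Car5a (-2.24, adjusted p = 1.87e-05), while Car2 was at 28.1, 21.2, 23.2 and 19.5 CPM in the DKO libraries and 4.76, 4.3, 5.25 and 4.13 CPM in the Rab30L-/- libraries (log2 fold change 2.31, standard error 0.16, adjusted p = 1.1e-05). In coenzyme Q synthesis 1 of 13 tested members was called higher and 2 lower (7.69% and 15.4%), and Coq8a fell by 1.55 (adjusted p = 0.00031). Of iron genes 2 of 23 tested members were called higher and 5 lower (8.7% and 21.7%). Among all genes tested 14.9% were higher and 15.8% lower, so neither count stands far from that. Transferrin, Trf, fell by 1.29 (adjusted p = 0.000724) and Steap3, an endosomal iron reductase, fell by 1.43 (adjusted p = 0.000161).

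Drug metabolism followed the same direction in part. Of the Cyp1, Cyp2 and Cyp3 genes 1 of 36 tested members was called higher and 17 lower (median -0.77). Cyp2c50 was at 26.1, 26.3, 23.2 and 52 CPM in the DKO libraries and 509, 368, 171 and 391 CPM in the Rab30L-/- libraries (log2 fold change -3.49, standard error 0.39, adjusted p = 0.000325), and Cyp2f2, typical of periportal hepatocytes, was at 185, 263, 83.6 and 181 CPM in the DKO libraries and 900, 848, 688 and 842 CPM in the Rab30L-/- libraries (log2 fold change -2.20, standard error 0.29, adjusted p = 0.000402). Cyp1b1 was the 1 that rose, where the higher count was 4 without Rab30cff741 and 2 without Rab30cff979. Of the glucuronosyl- and sulfotransferases 2 of 22 tested members were called higher and 6 lower, and the lower count ran from 4 to 8 with 1 library left out; Sult1b1 fell by 1.73 (adjusted p = 2.97e-05) and Ugt2a3 fell by 1.32 (adjusted p = 0.000127). Of the alcohol and aldehyde dehydrogenases 1 of 18 tested members was called higher and 9 lower: Aldh3a2, which oxidises fatty aldehydes, was at 2120, 1721, 1050 and 1419 CPM in the DKO libraries and 459.9, 186, 341 and 179 CPM in the Rab30L-/- libraries (log2 fold change 2.44, standard error 0.34, adjusted p = 0.000725), and Aldh1l1, of folate metabolism, fell by 1.71 (adjusted p = 0.000241). Of the glutathione S-transferases 2 of 22 tested members were called higher and 5 lower; Gstt3 fell by 1.92 (adjusted p = 0.00278) and Gsta1 was at 6.15, 2.01, 8.57 and 8.49 CPM in the DKO libraries and 0.0768, 0.0827, 0.533 and 0.0766 CPM in the Rab30L-/- libraries (log2 fold change 4.70, adjusted p = 0.000561; 6.19 without Rab30cff979).

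Genes of secreted plasma proteins were lower in DKO. Of 33 complement genes 27 were called lower and 1, Cd55, higher (median -1.21). The higher count was 0 without Rab30cff741, Rab30cff979, Rab30cff980, DKO233 or DKO943. C3, the hub of the cascade, was at 4293, 4706, 3665 and 3158 CPM in the DKO libraries and 9068, 15500, 7183 and 7818 CPM in the Rab30L-/- libraries (log2 fold change -1.32, standard error 0.25, adjusted p = 0.00267). Mbl2, a lectin that starts the cascade, was at 37.6, 61.4, 41 and 91.9 CPM in the DKO libraries and 261, 242, 324 and 298 CPM in the Rab30L-/- libraries (log2 fold change -2.28, standard error 0.27, adjusted p = 0.000244). Cfi, which inactivates C3b, was at 130.5, 156, 96.5 and 189 CPM in the DKO libraries and 622, 865, 580.2 and 678 CPM in the Rab30L-/- libraries (log2 fold change -2.26, standard error 0.22, adjusted p = 5.07e-05), and C8a, of the membrane attack complex, fell by 2.07 (adjusted p = 0.00119). Of 33 coagulation genes 25 were lower and 1, Tfpi2, higher (median -1.10), with 2 higher without Rab30cff979 or Rab30cff980. The fibrinogen chain Fgg was at 453, 628, 377 and 378 CPM in the DKO libraries and 2329, 4562, 1570 and 3038 CPM in the Rab30L-/- libraries (log2 fold change -2.65, standard error 0.32, adjusted p = 0.000244). Serpinf2, α2-antiplasmin, was at 188, 250, 174 and 179 CPM in the DKO libraries and 819, 1089, 1096 and 1054 CPM in the Rab30L-/- libraries (log2 fold change -2.36, standard error 0.17, adjusted p = 1.48e-05), and Proz, protein Z, fell by 2.42 (adjusted p = 2.15e-05). No DKO library overlapped a Rab30L-/- library for these genes. Of the Serpina genes 1 of 15 tested members was called higher and 11 lower (median -1.53), and the exception was Serpina7, which binds thyroxine (1.88, adjusted p = 0.0073); these genes are paralogs in part, and their counts may be shared. In the list of acute phase and other serum proteins 0 of 39 tested members were called higher and 28 lower (median -1.29). This acute phase list also holds Alb, Ttr, Trf and Rbp4, so its counts are not of acute phase genes alone. Saa4, the constitutive serum amyloid, was at 22, 25.3, 7.59 and 20.5 CPM in the DKO libraries and 128, 302, 119.9 and 202 CPM in the Rab30L-/- libraries (log2 fold change -3.32, standard error 0.45, adjusted p = 0.0012), and Ahsg, fetuin A, which falls in inflammation, was at 2771, 3861, 4534 and 2952 CPM in the DKO libraries and 7624, 10210, 10990 and 9175 CPM in the Rab30L-/- libraries (log2 fold change -1.43, standard error 0.20, adjusted p = 0.000474).

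The counts of secreted proteins were taken again without Rab30cff978, the library with the highest acute phase level. Then 23 complement, 23 coagulation and 27 acute phase genes were called lower. With any other library left out the counts were 23 to 26 for complement, 23 to 26 for coagulation and 21 to 30 for the acute phase. The summed level of the acute phase list was 65220 to 82360 CPM in the DKO and 104800 to 143000 CPM in the Rab30L-/- libraries. Much of that sum was Alb, which took 4.38% to 6.30% of all counts over the 8 libraries. The sum of complement was 8406 to 11030 CPM against 17870 to 36040 CPM. The defining hepatocyte genes Ttr, Apoa1 and Trf were lower as well, whereas Alb (log2 fold change -0.37, adjusted p = 0.133), Apob and Hnf4a were not called. Major urinary protein genes varied widely within groups, and 2 of 18 were called lower (Mup9 and Mup2), a count that was 1 without DKO943 and 0 without any other library except Rab30cff979.

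**Figure D4:**
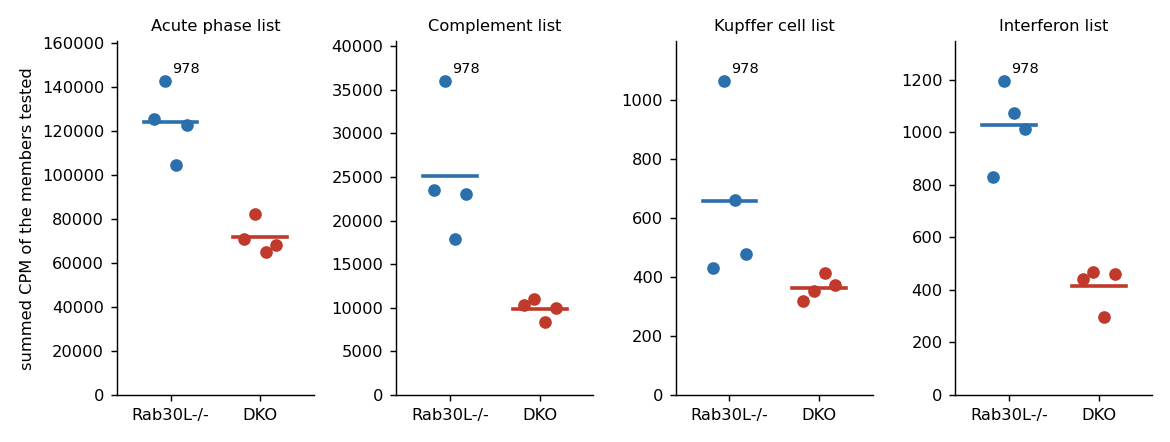
Summed CPM of the tested members of the acute phase, complement, Kupffer cell and interferon lists in each library, with blue points for Rab30L-/- and red points for DKO, a bar at the mean of 4 and the library Rab30cff978 marked. The DKO libraries lie below the Rab30L-/- libraries in every panel, and Rab30cff978 is the highest of all 8 in each. The acute phase list also holds Alb and other serum proteins.

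Regulators of hepatocyte genes were lower in part. Of the hepatocyte transcription factors 0 of 17 tested members were called higher and 8 lower, and the lower count was 5 without DKO232. Cebpa, a factor of metabolic and plasma protein genes, was at 304, 246, 153 and 192 CPM in the DKO libraries and 581, 557, 489.5 and 438 CPM in the Rab30L-/- libraries (log2 fold change -1.2, standard error 0.20, adjusted p = 0.00137), and Foxa2 was at 14.6, 16, 15.4 and 13.9 CPM in the DKO libraries and 29.6, 62.4, 24.9 and 40.7 CPM in the Rab30L-/- libraries (log2 fold change -1.39, standard error 0.25, adjusted p = 0.00264). Of the nuclear receptors 2 of 28 tested members were called higher and 8 lower (7.14% and 28.6%, where 14.9% and 15.8% of all genes tested were). Pparg, a receptor that drives lipid storage, was at 25.6, 26.2, 23.6 and 18.2 CPM in the DKO libraries and 4.61, 5.96, 5.7 and 5.21 CPM in the Rab30L-/- libraries (log2 fold change 2.12, standard error 0.16, adjusted p = 1.57e-05), and the retinoic acid receptor Rara fell by 1.12 (adjusted p = 0.000492). Egfr, the epidermal growth factor receptor, was at 129, 114, 148 and 133 CPM in the DKO libraries and 560.4, 658, 593 and 696 CPM in the Rab30L-/- libraries and fell 4.78-fold (log2 fold change -2.26, standard error 0.14, adjusted p = 4.89e-06). In the list of ErbB receptors, ligands and inhibitors 3 of 10 tested members were called higher and 2 lower. Of the 5 ligands tested, Btc (1.37, adjusted p = 0.00993), Nrg1 and Tgfa were called higher, while Nrg4 (1.44, adjusted p = 0.0542) and Egf (-0.20, adjusted p = 0.737) were not called. The inhibitor Lrig1 was called lower (-0.77, adjusted p = 0.00348). Of growth hormone and IGF genes 3 of 27 tested members were called higher and 7 lower (11.1% and 25.9%). These counts rested on the libraries used: the lower count was 4 without Rab30cff978, DKO232, DKO247 or DKO943, and the higher count 0 without Rab30cff978 and 1 without Rab30cff979, Rab30cff980 or DKO232. Socs3, an inhibitor of cytokine signalling, fell by 1.96 (adjusted p = 0.000203), Igfals, which holds IGF in plasma, fell by 1.69 (adjusted p = 0.000549) and Igfbp4 fell by 1.10 (adjusted p = 0.000248). Of glucocorticoid targets 2 of 18 tested members were called higher and 3 lower (11.1% and 16.7%, near the shares of all genes). Hsd11b1, which regenerates the hormone, fell by 1.19 (adjusted p = 0.00639) and Klf15 fell by 0.93 (adjusted p = 0.00217). Of the clock genes 1 of 19 tested members was called higher and 3 lower (5.26% and 15.8%, against 14.9% and 15.8% of all genes). The lower count was 5 by the DESeq2 Wald test and in the fit over 24 libraries, and 0 with no filter on low counts. Dbp, an output gene of the clock, was at 59.5, 54.4, 17.9 and 34.7 CPM in the DKO libraries and 99.2, 95.6, 120.1 and 112 CPM in the Rab30L-/- libraries (log2 fold change -1.36, standard error 0.32, adjusted p = 0.012).

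Periportal genes were lower in DKO. Of the periportal genes 0 of 18 tested members were called higher and 16 lower (median -1.78), 11 to 15 with 1 library left out. Of the pericentral genes 1 of 24 tested members was called higher and 12 lower (median -0.72), and 9 to 11 were lower with 1 library left out. The summed level of the pericentral genes overlapped between the groups, at 11698.5 to 15241.9 CPM in DKO and 8847 to 15920.5 CPM in Rab30L-/- libraries. Aldh1b1 was at 11.2, 14.6, 8.25 and 7.23 CPM in the DKO libraries and 36.2, 120, 265 and 82.5 CPM in the Rab30L-/- libraries (log2 fold change -3.62, standard error 0.64, adjusted p = 0.00555; -2.95 without Rab30cff979), and it stands with Sds and Hal on the periportal list. Rhbg, a pericentral ammonium transporter, was at 0.212, 0.259, 0.458 and 0.696 CPM in the DKO libraries and 2.53, 2.32, 2.46 and 2.37 CPM in the Rab30L-/- libraries (log2 fold change -2.50, standard error 0.38, adjusted p = 0.000749), and Cyp2c37 fell by 2.17 (adjusted p = 0.000641). Rhbg was low in every library, under 3 CPM.

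Genes of the Kupffer cell, the resident macrophage of the liver, and of the interferon response were lower in DKO. Of the Kupffer list 1 of 17 tested members was called higher and 11 lower (median -1.18), and 8 to 13 were lower with 1 library left out, 8 of them without Rab30cff978, Rab30cff979, DKO247 or DKO943. Cd5l, a secreted macrophage protein, was at 35.3, 37, 38.1 and 32.6 CPM in the DKO libraries and 64.9, 217, 103 and 78.2 CPM in the Rab30L-/- libraries (log2 fold change -1.70, standard error 0.35, adjusted p = 0.00738), and C1qa, of the complement start complex, was at 7.07, 7.84, 13.3 and 10.3 CPM in the DKO libraries and 23, 49.7, 50.8 and 18.4 CPM in the Rab30L-/- libraries (log2 fold change -1.88, standard error 0.37, adjusted p = 0.00585). The summed level of 6 defining markers, of which Clec4f, Timd4, Cd5l, Adgre1 and Csf1r were called lower, was 134 to 156.2 CPM in the DKO and 213.6 to 584.4 CPM in the Rab30L-/- libraries. Cd68, a lysosomal glycoprotein of macrophages, went the other way and was at 29.1, 23.5, 60.5 and 61.6 CPM in the DKO libraries and 5.38, 10.4, 9.39 and 6.89 CPM in the Rab30L-/- libraries (log2 fold change 2.44, standard error 0.37, adjusted p = 0.00151). Of the recruited and lipid-associated macrophage markers 2 of 6 tested members were called higher and 1 lower (median -0.40). Gpnmb was at 9.47, 4.99, 16.9 and 4.31 CPM in the DKO libraries and 0.461, 0.248, 0.41 and 0.153 CPM in the Rab30L-/- libraries (log2 fold change 4.72, standard error 0.55, adjusted p = 0.000199), with a step of 2.13 log2 units in the whole-body cohort, and Cd9 rose by 1.54 (adjusted p = 0.00157). The cytokine gene Il1b was called lower (-1.61, adjusted p = 0.0482), a call lost without any single library but Rab30cff741 or DKO943 (adjusted p up to 0.152).

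Of 45 interferon-stimulated genes 33 were called lower in DKO and 0 higher (edgeR; median -1.42), where 2097 of all genes tested were called lower. Isg15, a ubiquitin-like protein, was at 0.707, 0.972, 0.72 and 0.232 CPM in the DKO libraries and 4.61, 5.71, 11.4 and 6.74 CPM in the Rab30L-/- libraries (log2 fold change -3.47, standard error 0.42, adjusted p = 0.000173). Mx1, an antiviral GTPase, was at 0.707, 0.259, 0.393 and 0.232 CPM in the DKO libraries and 0.845, 3.89, 3.81 and 4.36 CPM in the Rab30L-/- libraries (log2 fold change -3.04, standard error 0.54, adjusted p = 0.00176), with Rab30cff741 nearest the DKO range. Gbp11, a guanylate binding protein, was at 4.8, 6.03, 0.916 and 0.974 CPM in the DKO libraries and 18, 14.5, 28.1 and 38.9 CPM in the Rab30L-/- libraries (log2 fold change -2.99, standard error 0.66, adjusted p = 0.0128). The groups did not overlap for these 3 genes. The count was 29 without Rab30cff978 and up to 37 without Rab30cff741. The summed level was 297.4 to 467.9 CPM in the DKO and 829.6 to 1197 CPM in the Rab30L-/- libraries. The part of macrophage RNA in the interferon and acute phase results was not tested.

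The defining markers of hepatocytes summed to 53150 to 68610 CPM in DKO against 71710 to 86730 CPM in Rab30L-/- libraries, with Ttr, Apoa1 and Trf, 3 of the 6, called lower and Alb not called. Of 20 stellate cell genes 2 were higher and 1 lower: Col4a1 rose by 0.87 (adjusted p = 0.00307), and Fn1, fibronectin, which hepatocytes also make, fell by 1.06 (adjusted p = 0.0101). None of the 6 defining stellate markers was called by edgeR, and their sum was 244.3 to 289.4 CPM in DKO against 224.7 to 253.2 CPM, with overlap. The 5 defining endothelial markers summed to 159.9 to 218.2 CPM in DKO against 134.3 to 153.3 CPM, without overlap, and Oit3 was the 1 called. The 2 bile duct markers tested, Epcam and Sox9, summed to 2.01 to 3.32 CPM in DKO against 4.14 to 10.3 CPM, also without overlap, and Sox9 was called lower. The part of these marker sums in the results for other genes was not tested. Of the endothelial genes 4 of 19 tested members were called higher and 0 lower (21.1% higher, where 14.9% of all genes tested were). Bmp2, a signal to hepatocyte iron genes, was at 20.8, 27.9, 30.6 and 23.9 CPM in the DKO libraries and 16.4, 15.8, 12.4 and 15.8 CPM in the Rab30L-/- libraries (log2 fold change 0.77, standard error 0.15, adjusted p = 0.00303), and Oit3 and Ptprb rose by 0.59 and 0.48 (adjusted p = 0.00689 and 0.0173). Of the bile duct genes 1 of 11 tested members was called higher and 4 lower, 2 lower without DKO232 or DKO247; Sox9 fell by 2.01 (adjusted p = 0.00129), and Krt8, which hepatocytes share, rose by 0.70 (adjusted p = 0.0122). The defining markers Krt7 and Krt19 of bile ducts, S100a8, S100a9 and Ly6g of neutrophils, and Cd3e and Cd79a of lymphocytes were too low to be tested. Of the 3 red cell markers Hba-a1 and Hbb-bs were not called, and Alas2, of heme synthesis in red cells, was called lower (-0.71, adjusted p = 0.0468), a call lost without any single library but DKO233 or DKO943. Hba-a2, a near-identical copy of Hba-a1 whose counts are uncertain, was called higher (3.29, adjusted p = 0.0205; 6.07 without Rab30cff979), a call lost without Rab30cff741. The summed markers spanned 117.2 to 391.5 CPM in DKO and 262.2 to 592.5 CPM in Rab30L-/- libraries, with overlap.

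Of 13 mitochondrially encoded genes of oxidative phosphorylation 5 were called higher and 0 lower by edgeR (median 0.44). mt-Co1, of cytochrome oxidase, was at 31000, 33090, 27520 and 30730 CPM in the DKO libraries and 20690, 19610, 18190 and 19870 CPM in the Rab30L-/- libraries (log2 fold change 0.64, standard error 0.16, adjusted p = 0.00951). The higher count was 8 without DKO247 and 1 in a fit over all 24 libraries, and the part of the higher mitochondrial share of all counts, given above, was not tested. Of 73 nuclear encoded genes 12 were lower (16.4%, against 15.8% of all genes) and 0 higher. Uqcr11, of complex III, was at 19.4, 20, 19.9 and 22.4 CPM in the DKO libraries and 55.5, 42.8, 96.8 and 37.3 CPM in the Rab30L-/- libraries (log2 fold change -1.51, standard error 0.27, adjusted p = 0.00267), and Ndufv3, of complex I, fell by 1.11 (adjusted p = 0.000288). The lower count was 6 without DKO247 and 7 without DKO232 or DKO233. Cytosolic ribosomal protein genes were called rarely, 4 higher and 6 lower of 82, with 1 lower without Rab30cff741, Rab30cff979, DKO232 or DKO233, 3 without Rab30cff980 and 2 higher without Rab30cff978, Rab30cff980 or DKO943, and Rpl12 rose by 0.73 (adjusted p = 0.00652).

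Genes of membrane traffic, where Rab30 itself acts, were called in both directions. Of 40 Rab genes tested 8 were higher and 9 lower (20% and 22.5%, where 14.9% and 15.8% of all genes tested were), and with 1 library left out the higher count ran from 4 to 8, with 5 without Rab30cff978, Rab30cff979 or DKO943 and 4 without Rab30cff980. Rab9, which returns cargo from endosomes to the Golgi, was at 70.7, 82.2, 78.3 and 93.3 CPM in the DKO libraries and 43.2, 30.9, 35.9 and 29.8 CPM in the Rab30L-/- libraries (log2 fold change 1.22, standard error 0.15, adjusted p = 0.00016). Rab34 was at 15.1, 14.1, 13 and 15.2 CPM in the DKO libraries and 7.68, 4.47, 5.54 and 4.44 CPM in the Rab30L-/- libraries (log2 fold change 1.37, standard error 0.19, adjusted p = 0.000441), and Rab3a, of regulated secretion, fell by 1.10 (adjusted p = 0.00702). The groups did not overlap for any of these. In ER to Golgi traffic 12 of 55 tested members were called higher and 7 lower (21.8% and 12.7%, also near the shares of all genes), and the lower count was 4 without DKO247. Sec24a, a cargo adaptor of the COPII coat, was at 216, 233, 213 and 184 CPM in the DKO libraries and 119, 130.1, 103 and 116 CPM in the Rab30L-/- libraries (log2 fold change 0.85, standard error 0.12, adjusted p = 0.000561). Gorasp1, a Golgi stacking protein, was at 21, 25.9, 25.1 and 26.3 CPM in the DKO libraries and 55.2, 36.7, 34.6 and 42.2 CPM in the Rab30L-/- libraries (log2 fold change -0.78, standard error 0.16, adjusted p = 0.00359), and the cargo receptor Tmed9 fell by 0.91 (adjusted p = 0.00258).

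Of the lysosomal genes 18 of 64 tested members were called higher and 14 lower (28.1% and 21.9%, where 14.9% and 15.8% of all genes tested were). The counts were 12 to 16 higher and 8 to 13 lower with 1 library left out, and the lower count was 8 without Rab30cff980 and 9 without Rab30cff978, DKO232 or DKO247. Lipa, the lysosomal acid lipase, was at 479, 416, 370.1 and 420.2 CPM in the DKO libraries and 190.5, 189, 187 and 136 CPM in the Rab30L-/- libraries (log2 fold change 1.26, standard error 0.15, adjusted p = 0.00016). Ctsc, cathepsin C, was at 30.7, 32.1, 21.9 and 33.5 CPM in the DKO libraries and 103, 182, 64.9 and 107 CPM in the Rab30L-/- libraries (log2 fold change -1.95, standard error 0.29, adjusted p = 0.00105), and Gm2a, a glycolipid carrier, fell by 1.52 (adjusted p = 0.000132). Of the 16 tested genes of the proton pump that acidifies the lysosome and of its partners Atp6ap1 and Atp6ap2, a grouping made after their values were seen, 9 were called higher, 6 were not called, and Atp6v0d2 was called lower (-3.57, adjusted p = 0.0258). The call of Atp6v0d2 was lost without any single library but Rab30cff741 or DKO233, with an adjusted p up to 0.0738, and its log2 fold change was -5.61 without DKO233. In autophagy 11 of 49 tested members were called higher and 4 lower. Mtor, the kinase that restrains autophagy, was at 157, 157, 168 and 163 CPM in the DKO libraries and 66.4, 64.6, 61.8 and 47.2 CPM in the Rab30L-/- libraries (log2 fold change 1.43, standard error 0.13, adjusted p = 3.58e-05). Sqstm1, the cargo receptor p62, was at 888, 707, 1194 and 1091 CPM in the DKO libraries and 508, 514, 574 and 409 CPM in the Rab30L-/- libraries (log2 fold change 0.95, standard error 0.19, adjusted p = 0.00304), and Fnip1, of the folliculin complex, rose by 1.01 (adjusted p = 0.00032). Atg101 was one of the 4 that fell (-0.86, adjusted p = 0.00217), a count that was 2 without Rab30cff980 or DKO232.

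The loss of Cpt2 with Rab30 intact, Cpt2L-/- against ff;ff, shares no library with the comparison above. There 3155 of 13270 genes tested (23.8%) passed the same thresholds, 1576 higher and 1579 lower (11.9% each). Among 12970 genes tested in both comparisons, 814 were called higher in both, which is 41.2% of those higher in DKO and 53.3% of those higher in Cpt2L-/-. Another 870 were called lower in both, 42.6% and 55.9% of the lists. Opposite calls were made for 50 genes, 25 in each direction. A gene called in 1 comparison alone is not shown to differ between them, and the difference itself was tested over 16 libraries.

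The 2 Cpt2 effects differed in 571 of 14063 genes tested (4.06%), with 310 higher (2.2%) and 261 lower (1.86%) on the Rab30-deleted background. This count rested on the libraries and the tool: it was 300 to 679 with 1 library left out, 374 in a fit over all 24 libraries, 1080 by DESeq2 and 1268 by limma-voom. Pdk4 was among the differing genes: its log2 fold change was 6.83 on the deleted and 3.83 on the intact background (difference 3.01, adjusted p = 0.00677). The whole-gene count of Cpt2 itself differed too (-1.07 on the deleted against -0.07 on the intact background, difference -0.99, adjusted p = 0.0191). For Rab30 the difference was 1.25 (adjusted p = 0.0951), with 3.23 against 1.99, and did not pass.

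The largest falls of the difference, by the same rule of size and abundance, were those of Mndal, Rpl34, Mme, Zc3h12d and Raet1d. Mme rose by 2.51 with Rab30 intact and fell by 4.83 with Rab30 deleted (difference -7.34, adjusted p = 5.96e-05; -8.36 without ffff240). Zc3h12d, an RNase of immune cells, had a difference of -5.34 (adjusted p = 0.000198). Mndal, of the interferon-inducible Ifi200 family, was at 0, 0, 0.0654 and 2.97 CPM in the DKO libraries and 4.76, 7.77, 5.17 and 4.75 CPM in the Rab30L-/- libraries, and its difference of -9.74 (adjusted p = 0.00446) was -14.54 without DKO943 and -12.15 without ffff242. Rpl34 and Raet1d had differences of -9.74 and -4.07 (adjusted p = 7.96e-12 and 0.0304), with steps of 3.76 and 4.41 log2 units in the whole-body cohort, and the call of Raet1d was lost without any 1 of 8 libraries (adjusted p up to 0.0639) and its difference -5.04 without DKO943 and -4.81 without ffff240. The largest rises of the difference were those of Ctse, C1s2, Corin, Obp2a and Tes3-ps. Ctse, C1s2, Corin and Obp2a had steps of 5.35, 5.16, 6.29 and 3.74 log2 units in the whole-body cohort, and their differences were 8.08, 7.17, 6.56 and 6.28 (adjusted p = 0.0252, 5.29e-05, 0.0116 and 0.00123). The call of Ctse was lost without any 1 of 6 libraries (adjusted p up to 0.0592), and its difference was 6.72 without DKO247. The difference of Corin was 3.70 without ffff240, and those of C1s2 and Obp2a were 9.48 and 7.22 without Cpt2801. Tes3-ps differed by 3.55 (adjusted p = 0.0465), a call lost without any 1 of 13 libraries (adjusted p up to 0.102), and the difference ran from 2.85 without ffff238 to 4.23 without Rab30cff980.

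**Figure D5:**
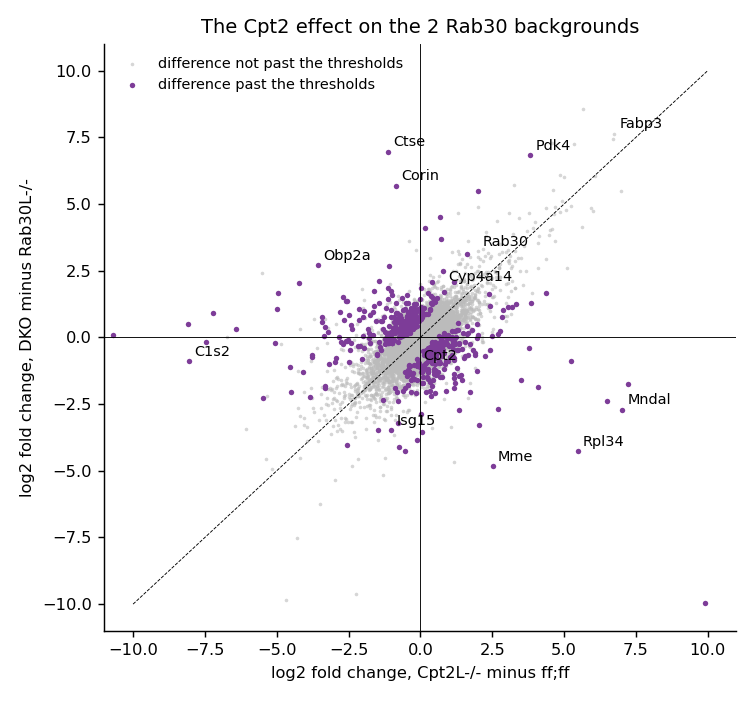
Log2 fold change of each gene tested in both comparisons, for Cpt2L-/- minus ff;ff (horizontal) and DKO minus Rab30L-/- (vertical), with the dashed line at equal values. Purple points are genes whose 2 Cpt2 effects differed by the test of the difference, and 814 genes were called higher and 870 lower in both comparisons.

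By gene list, 0 to 5 members passed the test of the difference, where 4.06% of all genes tested did. The 5 clock genes that did, of 19, were Cry1, Nr1d1, Dbp, Nfil3 and Bhlhe41, named after their values were seen. Their difference was above 0 for 2 and below 0 for 3. In the Cyp1 to Cyp3 list 5 of 36 also passed, 2 above 0 and 3 below: Cyp1b1, Cyp2c50, Cyp2c54, Cyp3a11 and Cyp3a13. Dbp, a transcription factor gene driven by the clock, was called higher with Rab30 intact (1.17) and lower with Rab30 deleted (-1.36; difference -2.52, adjusted p = 0.00981). The 5 pericentral genes, of 24, were Axin2, Tbx3, Rnf43, Slc1a2 and Cyp2c54, also named after their values were seen; the difference was above 0 for Slc1a2 and below 0 for the others. Of the 36 Pparα targets, 25 were called higher in Cpt2L-/- and Pdk4 was the 1 whose effect differed between backgrounds. Of the 47 amino acid genes 35 were lower in Cpt2L-/-, and Bcat2 was the 1 that differed. In complement and coagulation 22 and 24 genes were lower in Cpt2L-/-, with C1s2, Colec11 and Serpinf2 differing. Serpinf2 fell by 1.29 with Rab30 intact and fell by 2.36 with Rab30 deleted (difference -1.06, adjusted p = 0.023). Of the interferon genes 12 were lower and 1 higher in Cpt2L-/-, and Isg15, Ifi27l2b, Irf1, Gbp3 and Tap1, 5 of 45, differed, all lower on the deleted background. For Isg15 the log2 fold changes were -3.47 on the deleted and -1.02 on the intact background (difference -2.43, adjusted p = 0.0427). Of the Kupffer genes 4 were lower in Cpt2L-/-, and none differed past the thresholds by edgeR. The apolipoproteins that differed were Apoc4 (-1.59 against -0.11, adjusted p = 0.0191) and Apom (-1.92 against -0.88, adjusted p = 0.0137). In the Cyp4a list 1 member was called higher in Cpt2L-/- against 5 in DKO, and the difference passed for 0 of 6 by edgeR: that of Cyp4a14 was 1.13 (adjusted p = 0.0553). Akr1d1 fell by 4.49 with Rab30 intact and fell by 2.03 with Rab30 deleted (difference 2.46, adjusted p = 0.0033), and Car5a and Ppp1r3b differed in the same direction (1.62 and 1.44, adjusted p = 0.0347 and 0.0218). Because ff;ff mice carried no Cre and Rab30L-/- mice did, Cre and Rab30 deletion cannot be told apart in the baseline of the 2 effects.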

How the data were processed

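Livers of 24 h fasted mice were profiled by bulk RNA-seq, and 8 of 24 libraries formed the main comparison. The values used are raw counts per gene as deposited by the authors; the submitters' processing notes name HISAT2, DESeq2, GRCm38 and mm10, while the counting tool, annotation and strand setting are not given in the sources used here. Normalized counts, FPKM and tables of the authors' own fold changes were not used. Genes passing filterByExpr were fitted with edgeR 4.0.16 (TMM, quasi-likelihood test, Benjamini-Hochberg over all genes tested; R 4.3.3), and the difference between Cpt2 effects as an interaction over 16 libraries. All p-values in the report are adjusted and come from these edgeR fits. Named genes were the targeted genes, the 12 largest rises and falls (protein-coding, groups apart, the higher group's mean at 50 normalized counts or more), the 10 most abundant at least 2-fold, up to 4 called members of each list with the largest change, and 5 differences in each direction. Members and lists were chosen with earlier results of these data known. With no strand setting known, overlapping and antisense genes may share reads. Nothing says whether the groups were processed together, and p-values measure the spread between the 4 livers of a group. The code was tested on simulated data. Alternatives were DESeq2 1.42.0, limma 3.58.1 (voom), other filters and thresholds, and leaving out each library. Totals of 13248673 to 24497738 counts limit transcripts near 3 counts per library, and counting intervals cover counting error only. Some list members are counted in their lists but not reported by name here. Each list count is to be read beside the shares of all genes tested, 14.9% higher and 15.8% lower.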

Additional observations from a re-analysis of the deposited data

Results flagged for a closer look

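In groups of 4 a library stood apart from the other 3 for 44 levels, by Dixon's test at its 95% critical value. Both groups of each of the 244 genes named by rule were tried, and chance exceeds that value in about 1 of 20 groups. The test weighs a gap against the group's own range, so small differences are flagged too. Rab3a was at 2.29 CPM in DKO247 against 2.12 to 2.138 CPM in the rest of its group. Levels are in CPM. Rab30cff979 was apart for 14 genes: Creb5 (0.041), Tubb2b (0.123), Cd36 (31.4), Etfb (78.6), Elovl6 (47.6), Apoc1 (2240), Gsta1 (0.533), Coq4 (6.97), Ndufs6 (56.6), Nupr1 (3.08), Gm2a (65.9), Fnip1 (50.6), Bmp2 (12.4) and Hba-a2 (1.15). Rab30cff978 was apart for Saa2 (2487), Mndal (7.77) and Atg101 (34.6). Rab30cff741 was apart for C1s2 (16.7), Obp2a (1.23), Cyp4a12b (74.2), Ucp3 (0.23), Lpin2 (629.5), Aldh3b1 (2.15), Serpinf2 (819), Cd9 (13.6) and Mx1 (0.845). Rab30cff980 was apart for Rbm24 (0.0766), Fabp3 (0.0766) and Lipa (136). With the other 3 libraries at 0 any count at all is flagged. That holds for Rbm24, Fabp3 and Creb5, with 1 count each, and for Tubb2b and Ucp3, with 3 counts each.

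In the DKO group, DKO247 was apart for Ctse (59.1), Mvk (6.09), Rab3a (2.29), C8a (89.7) and Mug2 (39.5). DKO943 was apart for Mndal (2.97), Cyp2c50 (52.03), Gstm7 (13.3), Calr (312), Pdia6 (80.9), Mup9 (2.83), Mup2 (5.94) and Cry2 (37.9). DKO233 was apart for Atp6v0d2 (1.49) and Fga (833).

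The Cpt2 effect differed between the Rab30 backgrounds, by edgeR's test of the difference, for 27 of the 244 genes named by rule, and it was also passed by other list members that the report names. As log2 differences, deleted minus intact, lower values were found for Cpt2 (-0.99), Mme (-7.34), Rpl34 (-9.74), Cyp2c54 (-1.47), Mndal (-9.74), Zc3h12d (-5.34), Raet1d (-4.07), Apom (-1.03), Apoc4 (-1.47), Cyp2c50 (-2.02), Serpinf2 (-1.06), Dbp (-2.52), Foxa2 (-1.10), Tbx3 (-2.004) and Isg15 (-2.43). Higher values were found for Ctse (8.08), Pdk4 (3.01), Corin (6.56), C1s2 (7.17), Obp2a (6.28), Tes3-ps (3.55), Akr1d1 (2.46), Ppp1r3b (1.44), Car5a (1.62), mt-Nd3 (2.78), Bmp2 (1.23) and Pttg1 (2.999).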

How the results depend on the processing

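The count of genes called between DKO and Rab30L-/- was 3204 to 3976 with 1 library left out (1532 to 1932 higher, 1639 to 2044 lower), and 3822 to 4895 under the other normalization, filter and tool settings and in the fit over 24 libraries. It was 1551 at 2-fold or more (552 higher, 999 lower). The count of genes whose Cpt2 effect differed between backgrounds moved more. It was 3056 (1563 higher, 1493 lower) at an unadjusted p under 0.05, 1080 (601 and 479) by the DESeq2 Wald test, 1268 (666 and 602) by limma-voom, 374 (198 higher) in the fit over 24 libraries, and 199 higher at 2-fold or more. With 1 library left out it was 300 to 679 (156 to 373 higher, 144 to 313 lower), with 349 without Rab30cff978, 362 without Rab30cff980, 328 without DKO233, 365 without Cpt2166, 339 without Cpt2801 and 300 without Cpt2802. Why these counts moved was not tested. Of 254 gene values followed over the alternatives, none changed sign where called, 48 named genes lost their call between DKO and Rab30L-/- in at least 1 alternative, and 37 of these did so with 1 library left out. Some counts of 1 or 2 list members, given for edgeR, also moved with 1 library left out. The 2 lower triglyceride synthesis genes were 1 without Rab30cff978, DKO232, DKO233 or DKO247, and the 2 lower cell cycle genes 1 without Rab30cff741, Rab30cff980, DKO232, DKO233 or DKO247. The 2 higher members were 1 for bile acid genes without Rab30cff980 or DKO247, for glucuronosyl- and sulfotransferases without Rab30cff979, Rab30cff980, DKO232, DKO233 or DKO943, for glutathione S-transferases without any single library but Rab30cff979 or DKO247, for glucocorticoid targets without any single library but Rab30cff741 or DKO247, for gluconeogenesis without Rab30cff978, Rab30cff980, DKO247 or DKO943, for nuclear receptors without DKO232, for iron genes without Rab30cff980, and for stellate cell genes without Rab30cff978, Rab30cff980, DKO232, DKO233 or DKO247. The 1 higher dehydrogenase was 2 without DKO232, the 1 higher clock gene 2 without Rab30cff741 or DKO247, and the 1 higher pericentral gene 2 without DKO943 and 0 without Rab30cff978, Rab30cff980, DKO232 or DKO247. The 1 lower stress response gene was 2 without Rab30cff741 or Rab30cff979, and the 1 lower stellate gene 2 without Rab30cff741 or DKO232. No paired analysis was possible because the replicate numbers were given in accession order and pair no animals. Library depth limits transcripts near 3 counts per library.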
